A study of Mus musculus with 6 samples.

Results

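Dendritic cells of the aortic root were taken as the tdTomato-negative cells with at least 2 UMIs (unique molecular identifiers) of Cd209a and Flt3 together, at least 10 UMIs of H2-Aa, H2-Eb1 and Cd74 together, and fewer than 5 UMIs of C1qa, C1qb and C1qc together. Cells were kept at 1000 or more UMIs, 500 or more genes and at most 10% mitochondrial UMIs. The rule gave 75 cells of 17878 kept lineage-negative cells, and of 41759 kept cells in all 6 libraries. The rule reads expression, so the 8 genes in it describe the cells and are no finding about them.

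Conventional dendritic cells sample tissue antigens, load peptides onto MHC class II molecules and carry them to lymph nodes to prime T cells. They depend on the cytokine receptor FLT3 and divide into cDC1, which rely on IRF8 and carry XCR1 and CLEC9A, and cDC2, which rely on IRF4 and carry lectins such as CD209a and MGL2. Monocytes that enter tissue can also take up class II and CD209a, and in arteries both kinds lie in the valves, the root and the adventitia.

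Aortic roots came from male mice at 24 weeks, and those of 4 animals per group were pooled, digested with Liberase and elastase, and sorted on tdTomato, the mark of the traced smooth muscle lineage. The groups were littermate controls, Fbn1 C1041G/+ mice as a model of Marfan syndrome, and Fbn1 C1041G/+ mice with floxed Klf4. Each group gave 1 lineage-positive and 1 lineage-negative library with Chromium 3' version 3 chemistry. The series names a Klf4 deletion specific to smooth muscle, so the cells described here lie outside the traced lineage. The labels name neither the Cre driver nor the floxed exons. With 1 library per group there is no replicate. The values below compare libraries, carry no p-value, and have exact intervals that cover counting error only.

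The lineage-negative libraries held 5167, 7879 and 7088 barcodes and 47750360, 81181913 and 70598538 UMIs in the control, the Marfan and the library labelled Klf4-floxed. Any pair of the 6 libraries shared 9 to 60 barcodes, at most 0.671% of the smaller library. Klf4, the targeted gene, encodes a zinc finger transcription factor that monocytes and dendritic cells also express. Over whole lineage-negative libraries it stood at 280, 268 and 358 CPM (UMIs scaled to a common total), and over lineage-positive libraries at 30.4, 44.6 and 116 CPM. The level in the library labelled Klf4-floxed was thus the highest in both fractions. A 3' tag may lie outside the deleted part, so this level does not check the label.

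Dendritic cells numbered 9 in the control library, 43 in the Marfan library and 23 in the library labelled Klf4-floxed. They were 0.200% (95% Clopper-Pearson interval 0.0913 to 0.378) of kept control cells, 0.605% (0.438 to 0.814) of Marfan cells and 0.367% (0.233 to 0.551) of cells in the library labelled Klf4-floxed. The control and Marfan intervals did not overlap. Over cells with a UMI of Ptprc, the gene of the leukocyte antigen CD45, the shares were 1.86%, 2.50% and 2.32%, with overlapping intervals. Over dendritic cells, C1q macrophages and Ly6c2 monocytes together they were 2.16%, 3.08% and 2.50%. Sorting, digestion and pooling act before these shares, and their part was not tested. The cells held a median of 19187, 13564 and 16976 UMIs, against 10708, 10057.5 and 9037 in C1q macrophages. Ptprc was detected in all of them except 2 Marfan cells.

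Both arms of the rule contributed. Cd209a without Flt3 admitted 34 cells, Flt3 without Cd209a 14 cells, and 27 cells held both transcripts. Cd209a, a C-type lectin gene (chr8:3743397-3748984, minus strand, GRCm38), gave 180 UMIs in 8 of 9 control cells, 414 UMIs in 33 of 43 Marfan cells and 239 UMIs in 20 of 23 cells of the library labelled Klf4-floxed. Flt3, the receptor tyrosine kinase gene (chr5:147330741-147400489, minus strand), gave 6 UMIs in 2 control cells, 57 in 24 Marfan cells and 30 in 15 cells of the library labelled Klf4-floxed. The sum of both ranged from 4 to 41 UMIs per control cell (median 18), from 2 to 40 per Marfan cell (median 7) and from 2 to 32 per cell of the library labelled Klf4-floxed (median 5). At the threshold, 7 cells held exactly 2 UMIs and 8 held 3, while 34 cells that met the rest of the rule were 1 UMI short. The H2-Aa, H2-Eb1 and Cd74 sum had medians of 1184, 657 and 919 in the dendritic cells and 259, 293.5 and 177 in the cells that were 1 UMI short. No cell failed on class II alone, and 2 cells with 5 to 9 and 28 cells with 10 or more C1q UMIs stayed out.

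The shares of cells with a rule gene were set beside those in fibroblast-type cells, which should lack Cd209a. The rule fixes the dendritic cell shares, so the contrast is a description. Thinned to 4000 UMIs per cell, Cd209a was found in 8 of 9 control, 29 of 42 Marfan (69.0%) and 12 of 22 cells (54.5%) of the library labelled Klf4-floxed. In all, 1 Marfan cell and 1 cell of the library labelled Klf4-floxed were too shallow for this and were left out. Fibroblast-type cells held it in 0.0298%, 0.0225% and 0.0226% of thinned cells, and in 0.245%, 0.0842% and 0.127% before thinning, at median depths of 10268, 11052 and 11081.5 UMIs. Flt3 stood at 11.1%, 23.8% and 31.8% of dendritic cells and 0.0298%, 0.045% and 0.0452% of fibroblast-type cells. H2-Aa, an abundant transcript, was found in 16.3%, 17.1% and 19.0% of fibroblast-type cells.

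The label was checked on genes the rule did not use. The 13 markers of the dendritic cell core other than Flt3 summed to 1540, 1730 and 1437 CPM in the dendritic cells and to 249, 354 and 263 CPM in C1q macrophages of the same libraries. The 3 genes given next belong to this list, so their levels are part of its sums. Zbtb46, a transcription factor gene that marks conventional dendritic cells, stood at 45.1, 36.3 and 40.3 CPM, under the 50 CPM asked of a gene below. It was found in 12 of 34 cells with Cd209a and no Flt3, 5 of 14 with Flt3 and no Cd209a, and 16 of 27 with both. Itgax, which encodes CD11c, stood at 209, 145 and 123 CPM. Napsa, an aspartic protease gene, gave 570, 752 and 588 CPM and was found in 9 of 9, 41 of 43 and 23 of 23 cells. Napsa was thus missing from only 2 of the 75 cells, both in the Marfan library.

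Markers of other cell types were not absent, though several lists were low. The monocyte list summed to 423, 1856 and 680 CPM. In the Marfan library this was above the 1730 CPM of the dendritic cell core without Flt3. The macrophage list summed to 908, 774 and 1055 CPM, against 26001, 22204 and 27759 CPM in C1q macrophages. In the library labelled Klf4-floxed 1 cell held 48.1% of these UMIs, and the level was 573 CPM without it, the lowest of the 3. The fibroblast list summed to 1173, 1529 and 1290 CPM, against 4292, 4451 and 6122 CPM in macrophages. Without the cell of most fibroblast UMIs the Marfan level was 1001 CPM. The part of this RNA in the values below was not tested. B cell markers summed to 0, 6.9 and 9.5 CPM, endothelial markers to 5.6, 31.1 and 9.5 CPM, and smooth muscle markers to 45.1, 63.9 and 85.4 CPM. The T or NK list reached 203, 123 and 138 CPM, mostly through Cd2, Il7r and Ltb, genes that dendritic cells can express. TDT, the tdTomato transcript, gave 1, 1 and 2 UMIs in all, and Fbn1 0, 3 and 2 UMIs.

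The class II genes outside the rule were read next, and H2-Ab1 was found in all 75 cells. H2-Ab1 (chr17:34257689-34269419, plus strand), the class II beta chain gene outside the rule, stood at 13450, 12790 and 12495 CPM, with a median of 283, 156 and 248 UMIs per cell. Class II genes are switched on by CIITA, which is recruited by factors bound to the conserved X and Y boxes of their promoters. The table of RefSeq windows (GRCm38.p6) used here held 14 of the 19 genes of the class II list. The 150 bases before the start of 3 of them are shown, 5′ to 3′ on the plus strand, because these genes lie in the class II region and carry both boxes. A script compared these windows and took the 18-letter stretch on which the 3 agreed best, CTANNAACNGATGATGCT, with 15 letters alike and N where they differed. Capitals mark this stretch, which lies at the place of the X box, and every CCAAT or its complement ATTGG, the letters of the Y box core. The ATTGG follows the stretch in each window. The CCAAT further on in H2-Eb1 has no match in the other windows and is a match of letters only.
H2-Eb1 (chr17:34305717-34305866): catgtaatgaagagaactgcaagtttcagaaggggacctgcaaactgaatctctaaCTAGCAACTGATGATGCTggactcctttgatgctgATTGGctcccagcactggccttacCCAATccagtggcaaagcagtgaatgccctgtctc
H2-DMb1 (chr17:34153041-34153190): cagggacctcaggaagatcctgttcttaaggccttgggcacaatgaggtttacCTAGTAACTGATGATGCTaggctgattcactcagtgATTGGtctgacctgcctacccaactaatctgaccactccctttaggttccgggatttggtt
H2-DMb2 (chr17:34145099-34145248): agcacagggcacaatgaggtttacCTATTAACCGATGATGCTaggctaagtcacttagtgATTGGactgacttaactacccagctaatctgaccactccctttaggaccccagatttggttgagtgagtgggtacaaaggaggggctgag
On either strand, the 18-letter stretch was found in 3 of 32851 windows of all genes (0.00913%), the 3 it was built from, so its rarity elsewhere is a description only. CCAAT was found in 37.4% of all windows and in 13 of the 18 windows of the class II list. The 2 motifs do not overlap. A match is a description of letters and no test of binding.

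Against C1q macrophages of the same library, dendritic cells differed by at least 2-fold in the same direction in all 3 libraries for 390 of 2758 genes. Of these, 89 genes (3.23%) were higher and 301 (10.9%) lower in dendritic cells, and the median over all genes was a log2 ratio of -0.19. Both populations were chosen by their RNA, C1q among it, so these ratios describe them and were not tested.

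Class II genes were among the higher genes. H2-DMb2, which encodes a chain of the peptide exchange factor H2-DM, stood at 259, 166 and 289 CPM in dendritic cells and 3.1, 5.4 and 4.4 CPM in macrophages. H2-Oa, a chain of the modulator of that exchange, stood at 130, 128 and 194 CPM against 8.4, 3.9 and 3.1 CPM. Of the 9 class II list genes measured outside the rule, 6 were higher in all libraries (Ciita, H2-Oa, H2-DMa, H2-DMb2, H2-DMb1 and H2-Ab1), and 1, Lgmn, was lower. Ciita, the master regulator, stood at 73.3, 116 and 140 CPM against 36.1, 41.2 and 27.3 CPM. The H2-Ab1 difference was smaller, from 13450, 12790 and 12495 CPM to 3994, 5768 and 3876 CPM, since macrophages carried class II RNA too. Lgmn, a lysosomal protease of macrophages, stood at 11.3, 32.8 and 16.6 CPM against 582, 684 and 619 CPM.

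Among the named higher genes Klrd1, which encodes the lectin-like receptor CD94, stood furthest apart, at 118, 347 and 202 CPM against 1.5, 3.1 and 0.4 CPM. The ratio nearest to 1 among the 3 libraries was 80.6-fold for Klrd1, 59.3-fold for the adhesion molecule gene Epcam, 44.1-fold for P2ry10, 20.8-fold for Cd24a, 16.3-fold for Jaml, 16.2-fold for the peptidase gene Dpp4 and 15.7-fold for Napsa. Ccl17, a chemokine that attracts CCR4-bearing T cells, stood at 2323, 1044 and 228 CPM against 3.1, 29.6 and 34.6 CPM. S100a4, a calcium-binding protein gene of motile cells, stood at 2239, 2533 and 1996 CPM against 568, 614 and 494 CPM, and 7 of 15 genes of the S100 and cytoskeleton list were higher in all libraries. Of the dendritic cell core list, 5 of 7 measured genes were higher (Traf1, Dpp4, Napsa, Itgax and Jaml).

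Macrophage genes led on the lower side, with 14 of 16 list genes lower and a median log2 ratio of -5.08. Pf4, a platelet-factor chemokine of resident macrophages, stood at 5.6, 5.2 and 11.9 CPM against 2824, 1575 and 2460 CPM. Apoe, the lipoprotein gene, stood at 124, 154 and 451 CPM against 14763, 14795 and 18333 CPM. F13a1 and Ms4a7 had no UMI in any dendritic cell, and F13a1 was at least 72.7-fold lower in each library, counting 3 UMIs per library as the floor. Of the lysosome list 10 of 18 genes were lower, and of the chemokine ligand list 8 of 13. Tlr7, the sensor of single-stranded RNA, had no UMI in the 75 cells. No gene of the MHC class I (0 of 13), costimulation (0 of 9), interferon (0 of 14) or cell cycle (0 of 4) lists was past 2-fold in all 3 libraries.

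**Figure D1:**
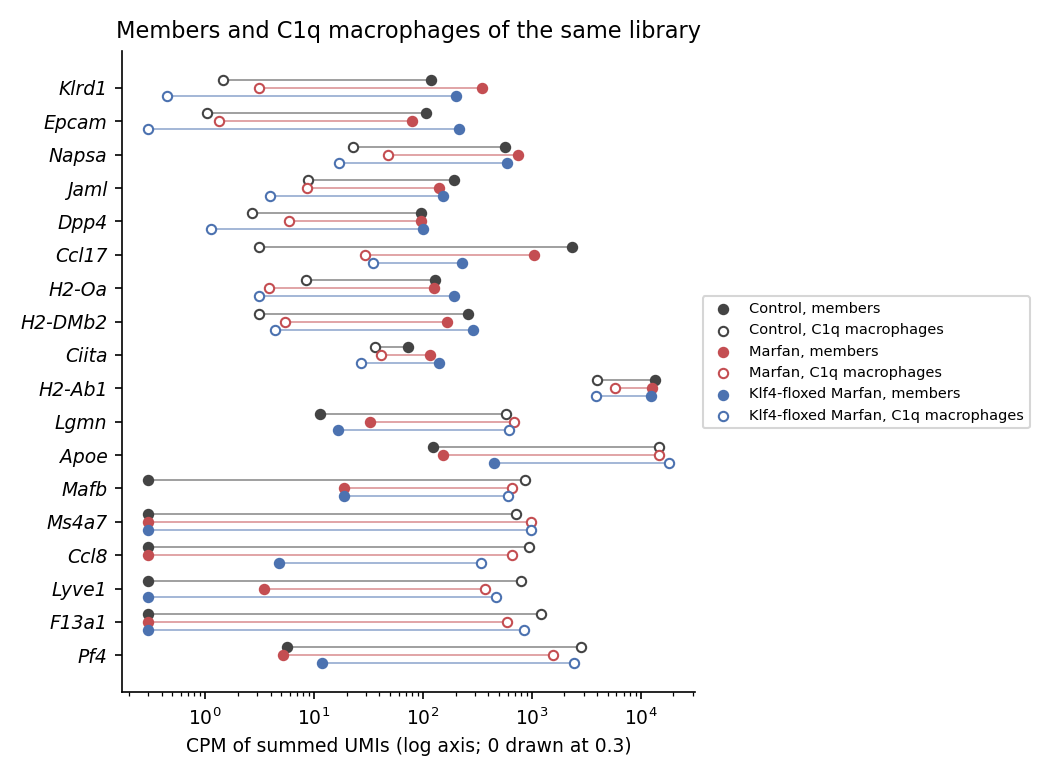
Levels of 18 genes in CPM of summed UMIs (log axis, values of 0 drawn at 0.3) in dendritic cells (filled) and C1q macrophages (open) of the 3 lineage-negative libraries, with a line joining both populations of a library. Class II and dendritic cell genes lie to the right in dendritic cells, such as Napsa at 570, 752 and 588 CPM, and macrophage genes such as Pf4 lie far to the left, at 5.6, 5.2 and 11.9 CPM.

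A comparison with Ly6c2 monocytes rested on 5 control cells, 161 Marfan cells and 13 cells of the library labelled Klf4-floxed. These cells summed to 22706, 15963 and 20566 CPM on the fibroblast list, so the class was not clean. Of 2479 genes, 104 (4.2%) were at least 2-fold higher in dendritic cells in all libraries and 236 (9.52%) lower, 340 in all. H2-DMa, H2-DMb2, Mgl2, Ccl17 and Itgax were among the higher genes.

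The 75 cells were not alike. Among cells with Cd209a, Mgl2, the gene of a galactose-binding lectin (chr11:70130329-70137550, plus strand), was either well detected or missing. It reached 2 or more UMIs in 43 cells, where it ranged from 2 to 108 UMIs with a median of 24, and only 5 of these cells held 2 to 6. It was under 2 UMIs in the other 18 cells with Cd209a, 1 of which held 1 UMI. The 14 cells with Flt3 and no Cd209a formed the remaining group. These 3 groups were set after the values were seen and carry no test.

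Cells with Cd209a and Mgl2 made up 8 of 9 control cells (88.9%), 19 of 43 Marfan cells (44.2%) and 16 of 23 cells (69.6%) of the library labelled Klf4-floxed. Cells with Cd209a and little or no Mgl2 numbered 0, 14 and 4. Cells with Flt3 alone numbered 1, 10 and 3. In the control library each of the 8 cells with Cd209a held at least 15 Mgl2 UMIs. At 4000 UMIs per cell, Mgl2 was still found in 8 of 8 control, 18 of 33 Marfan and 16 of 19 of these cells in the library labelled Klf4-floxed, so equal depth kept the same order.

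Ccl17 stood at 1548 CPM in cells with Cd209a and Mgl2, 12.2 CPM in cells with Cd209a and little Mgl2, and 58.0 CPM in cells with Flt3 alone. It was found in 23 of 43, 2 of 18 and 2 of 14 cells. Of its UMIs, 267 lay in 1 Marfan cell and 155 in 1 control cell. Ear2, a ribonuclease gene, was found in 15 of 43, 0 of 18 and 1 of 14 cells. Irf4, a cDC2 transcription factor gene, stood at 53.7, 24.4 and 0 CPM, and Csf1r, the receptor of the macrophage growth factor, at 103, 44.8 and 8.9 CPM. The genes with the largest ratios for cells with Mgl2 against cells with Cd209a and little Mgl2 were Ccl17 (1096 against 3 UMIs), Lmna (144 against 1), Cd81 (123 against 2), Epcam (130 against 3), Creb5 (42 against 1) and Pdlim1 (84 against 2). For Mmp12, Ear2 and Fcrls the other group had no UMI, and the ratios were at least 18.1-fold, 16.4-fold and 13.1-fold against a floor of 3 UMIs.

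Among cells with Cd209a, the monocyte list was higher where Mgl2 was low, at 2774 CPM against 788 CPM with Mgl2. Cells with Flt3 alone, which also lacked Mgl2, stood at 878 CPM. Ms4a4c and Ifitm6 of this list were lowest in those cells, at 80.3 and 4.5 CPM. Plac8 (chr5:100553725-100572245, minus strand), a gene of circulating monocytes and of plasmacytoid cells, was found in 2 of 43 cells with Cd209a and Mgl2, in 14 of 18 with Cd209a and little Mgl2, and in 8 of 14 with Flt3 alone. Its summed level was 14.1, 1186 and 432 CPM in that order. Ly6c2, the antigen gene of classical monocytes, stood at 0, 114 and 44.6 CPM, but was found in only 4 of the 18 and 2 of the 14 cells. Ifitm1 (chr7:140967221-140969825, plus strand), an interferon-inducible membrane protein gene, stood at 162, 1169 and 352 CPM. It was found in 8 of 43, 10 of 18 and 1 of 14 cells, so the last level was that of 1 cell with 79 UMIs. Ccr2, the chemokine receptor that brings monocytes and pre-dendritic cells into tissue, was detected in all 3 groups, at 242, 436 and 161 CPM. Clec10a, another galactose-binding lectin gene, stood at 150, 452 and 8.9 CPM, so it was higher where Mgl2 was lower among cells with Cd209a, while both were low in cells with Flt3 alone. The dendritic cell core list without Flt3 stood at 1547, 2045 and 1262 CPM, and H2-Ab1 stood at 14166, 11257 and 10090 CPM.

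**Figure D2:**
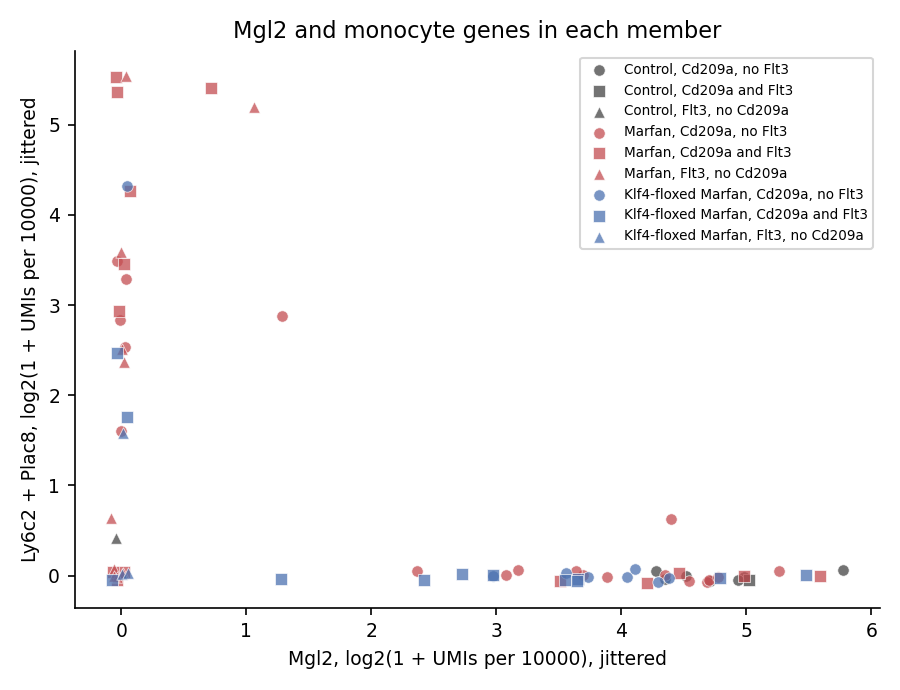
Each of the 75 cells by its Mgl2 level (horizontal) and its Ly6c2 plus Plac8 level (vertical), both as log2(1 + UMIs per 10000 UMIs of the cell) with a small jitter, coloured by library and shaped by which of Cd209a and Flt3 it held. Cells lie along either axis, with Plac8 in 2 of the 43 cells that held Cd209a and at least 2 Mgl2 UMIs and in 14 of the 18 with less Mgl2.

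Among cells with Flt3 alone, cDC1 genes stood out. Irf8, the cDC1 transcription factor gene, reached 5 UMIs in 10 of the 14 cells and in none of the other 61, and stood at 847 CPM against 25.4 CPM in cells with Cd209a and Mgl2 and 24.4 CPM in cells with Cd209a and little Mgl2. Xcr1, the receptor of the chemokine XCL1, gave 35 UMIs in 9 of the 14 cells, and Clec9a, the receptor of dead-cell actin, 32 UMIs in 8. Neither had a UMI in the 61 cells with Cd209a, which makes them at least 49.6-fold and 45.3-fold higher in the 14. Txndc16 stood at 602 CPM, Naaa at 691 CPM, and Itgae, which encodes CD103, at 210 CPM, against 15.5, 186 and 48.0 CPM in cells with Cd209a and Mgl2. Sirpa, a cDC2 receptor gene, stood at 4.5 CPM against 84.7 CPM, and S100a4 at 557 CPM against 2657 CPM. Of the 14 cells, 6 lay in the cDC1 range defined next and not in the monocyte range, 3 in the monocyte range and not in the cDC1 range, 3 in both and 2 in neither. This split leaves out the other ranges defined next: 3 of the 14 cells lay in the mature range and 2 in the plasmacytoid range.

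**Figure D3:**
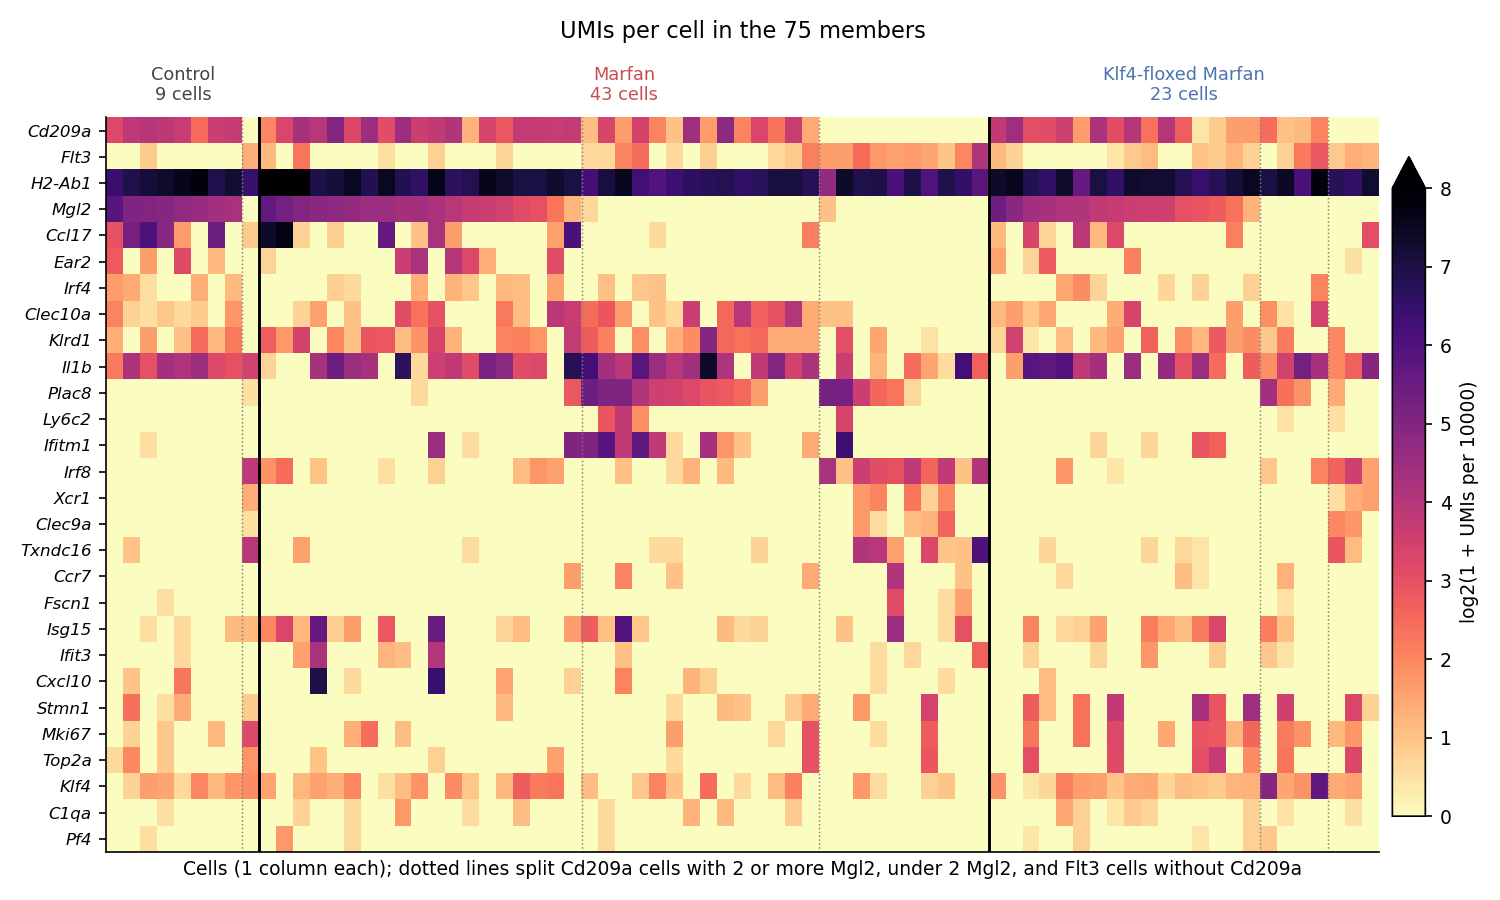
UMIs of selected genes in each of the 75 cells (1 column per cell), as log2(1 + UMIs per 10000 UMIs of the cell), with the control, Marfan and Klf4-floxed-labelled cells separated by solid lines and the 3 groups by Cd209a and Mgl2 by dotted lines. H2-Ab1 fills every column, Plac8 shares a column with Mgl2 in 2 of the 43 cells with Cd209a and Mgl2, and Xcr1, Clec9a and the Irf8 values of 5 or more UMIs lie with the 14 cells that held Flt3 alone.

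Ranges of UMI sums per cell described these states without clustering, and 1 cell could lie in several. The cDC1 range, Xcr1 and Clec9a at 2 or more UMIs together, held 1 control cell, 5 Marfan cells and 3 cells of the library labelled Klf4-floxed, all with Flt3 and without Cd209a. Agpat3, a lipid acyltransferase gene, gave 20 UMIs in 8 of these 9 cells and 2 UMIs in the other 66 cells. Gcsam gave 20 UMIs in 7 of the 9 and none outside, at least 36.2-fold, and Tlr3, the sensor of double-stranded RNA, was 32.6-fold higher. The mature range, Ccr7, Fscn1 and Ccl22 at 3 or more, held 1, 4 and 5 cells, and 3 of these 10 cells lay exactly at the threshold. Ccr7 was found in 7 of the 10, Fscn1 in 4 and Ccl22 in 7, so few held all of the genes. Ccl5 led the range with 53 UMIs in 3 cells against 1 UMI outside. Serpinh1, Rbp4, Cxcl12 and Timp3, genes of stromal cells, were also among the 8 leading genes of this range, and 1 cell held 111 of its 116 Timp3 UMIs. The plasmacytoid range, Siglech, Ccr9 and Ly6d at 3 or more, held 0, 1 and 1 cells, and 67 of the 74 UMIs in the Marfan cell were Ly6d.

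The cycling range, Mki67, Top2a, Birc5, Ube2c and Cdk1 at 2 or more UMIs together, held 4 of 9 control cells (44.4%, 13.7 to 78.8), 5 of 43 Marfan cells (11.6%, 3.89 to 25.1) and 12 of 23 cells of the library labelled Klf4-floxed (52.2%, 30.6 to 73.2). Nusap1, Cenpf, Pclaf and Prc1, genes of DNA replication and the mitotic spindle, led it. Thinned to 4000 UMIs, the range held 2 of 9, 4 of 42 (9.52%) and 8 of 22 cells (36.4%). The Marfan share was the lowest of the 3 at either depth. Before thinning, the intervals of the Marfan library and the library labelled Klf4-floxed did not overlap, and the control interval overlapped both. After thinning the former 2 overlapped, at 2.66 to 22.6 and 17.2 to 59.3. A second random draw gave 1 of 9 control cells (11.1%), 3 of 42 Marfan cells (7.14%) and 9 of 22 cells of the library labelled Klf4-floxed. In that draw the intervals of the last 2 did not overlap, at 1.5 to 19.5 and 20.7 to 63.6, so their overlap depended on the draw.

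The monocyte range, Ly6c2 and Plac8 at 3 or more UMIs together, held 0 of 9 control cells (interval to 33.6%), 17 of 43 Marfan cells (39.5%, 25 to 55.6) and 3 of 23 cells of the library labelled Klf4-floxed (13%, 2.78 to 33.6). It held 1 of the 43 cells with Cd209a and Mgl2, 13 of the 18 with Cd209a and little Mgl2, and 6 of the 14 with Flt3 alone. At 4000 UMIs it held 0, 12 of 42 (28.6%) and 1 of 22 (4.55%). Plac8 was also more widespread in other Marfan cells. At 4000 UMIs it was found in 0.539%, 8.24% and 1.24% of C1q macrophages and in 1.82%, 9.80% and 1.85% of fibroblast-type cells, against 11.1%, 38.1% and 18.2% of dendritic cells. Before thinning it was found in 1, 19 and 4 dendritic cells. Ifitm1 was found in 0%, 28.6% and 9.09% of dendritic cells, and in 0.744%, 1.80% and 0.791% of fibroblast-type cells. The part of free Plac8 RNA in the Marfan range was not tested. The 30 cells in none of the ranges numbered 5, 19 and 6, and Ear2, Cd163 and Fcrls led them.

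**Figure D4:**
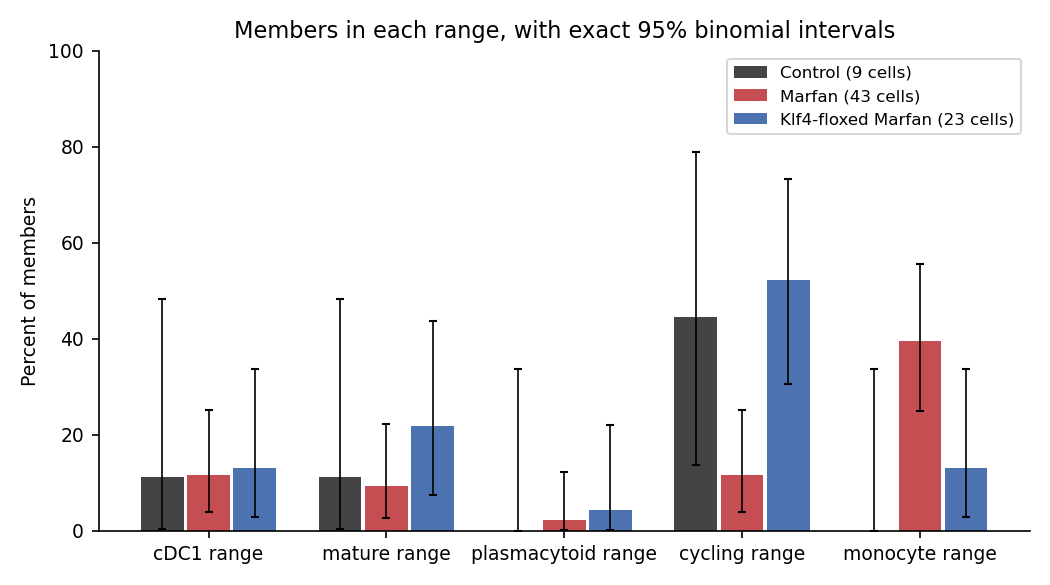
Percent of dendritic cells in each range of UMI sums in the control (9 cells), Marfan (43 cells) and Klf4-floxed-labelled (23 cells) libraries, with exact 95% binomial intervals as bars of counting error. The cycling range held 44.4%, 11.6% and 52.2% and the monocyte range 0%, 39.5% and 13%, while the cDC1 range held 11.1%, 11.6% and 13%.

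Unsupervised clustering of the 75 cells gave 6 clusters, which followed the ranges only in part: the 20 monocyte-range cells were spread over all 6. A cluster of 9 cells, all with Flt3 alone, had Snx22, Fscn1, Gcsam, Xcr1 and Cadm1 among its leading genes and held 0, 7 and 2 cells. A cluster of 12 cells led by cycling genes held 1, 2 and 9 cells. A cluster of 11 cells led by Rsad2 and Ifit genes held 0, 6 and 5 cells. A cluster of 18 cells led by Ccl17, Fcrls, Axl and Ear2 held 4, 12 and 2 cells. The other clusters, of 13 cells led by Recql and Hspb1 and of 12 cells led by Cd163 and Mt2, held 1, 9 and 3 and 3, 7 and 2 cells. These genes defined the clusters and are no test of them.

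Klf4 within dendritic cells gave 27 UMIs in 8 control cells (152 CPM), 70 UMIs in 26 Marfan cells (121 CPM) and 103 UMIs in 21 cells of the library labelled Klf4-floxed (244 CPM). Of the last, 33 and 16 UMIs lay in 2 cells. Without the 2 cells of most Klf4 in each library the levels were 117, 107 and 133 CPM. At 4000 UMIs per cell Klf4 was found in 6 of 9 control cells (66.7%), 11 of 42 Marfan cells (26.2%) and 14 of 22 cells of the library labelled Klf4-floxed (63.6%). The share was thus lowest in the Marfan cells, while the higher sum in the library labelled Klf4-floxed rested on 2 cells. C1q macrophages stood at 59.8%, 51.6% and 60.3%.

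The Marfan library was first set against the control library, to ask how dendritic cells of the Fbn1 mutant root compared with littermates. Genes were read where the library with the larger level had 50 CPM or more and showed the gene in 10% or more of its dendritic cells. Of 2876 such genes, 249 (8.66%) were at least 2-fold higher and 215 (7.48%) lower, 16.1% in all. The median over all genes was -0.04 on the log2 scale. With each cell weighted alike, 337 were higher and 186 lower. The control sums came from 9 cells and 177326 UMIs, so single genes often rested on few UMIs.

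Interferon-response genes were higher in the Marfan library, 16 of 18 list genes past 2-fold with a median log2 ratio of 2.32. The list sum per 10000 UMIs ranged from 3.56 to 37.1 over control cells (median 8.59), from 1.85 to 392 over Marfan cells (median 23.9) and from 0.630 to 84.3 over cells of the library labelled Klf4-floxed (median 13.2). The ranges overlapped, and a minority of Marfan cells stood far above the rest. Isg15, a ubiquitin-like interferon-induced protein gene, gave 6 UMIs in 4 control cells and 248 UMIs in 22 Marfan cells, a log2 ratio of 3.66 (2.52 to 5.12). Ifit2 and Ifit3, antiviral effectors that bind foreign RNA, had 1 control UMI each and 55 and 51 Marfan UMIs, log2 ratios of 4.08 (1.54 to 9.40) and 3.97 (1.42 to 9.30). Their highest Marfan cell held 32 and 22 of these UMIs. Cxcl10, an interferon-induced T cell chemokine gene, gave 262 UMIs in 10 Marfan cells, of which 127 and 123 lay in 2 cells, and 21.6 CPM remained without them. Without the 2 cells of most list UMIs in each library the list sums were 817, 3050 and 2119 CPM, from 1500, 4256 and 2696 CPM. In C1q macrophages of the same libraries the list stood at 4736, 5667 and 4460 CPM, and 1 of 15 genes was higher in the Marfan library, with a median of 0.19. Control dendritic cells thus lay well under control macrophages on this list, and Marfan dendritic cells lay nearer to Marfan macrophages, without a test of that difference.

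Monocyte genes were higher in Marfan dendritic cells, 4 of 5 measured, with a median of 2.57. Plac8 gave 1 UMI in control cells and 357 UMIs in 19 Marfan cells, a log2 ratio of 6.77 (4.29 to 12.08). Of the list, Ms4a4c followed at 4.75 (3.19 to 7.04), Ifitm6 at 2.57 (0.95 to 4.89) and Gngt2 at 1.10. Ifitm1, which is not in the list, gave 1 UMI and 445 UMIs in 14 cells, a log2 ratio of 7.09 (4.61 to 12.40), the largest named by the rule. The list sum per 10000 UMIs ran from 1.65 to 6.78 in control cells (median 4.57) and from 0 to 83.4 in Marfan cells (median 13.5). Ly6c2 gave 0 and 36 UMIs, the latter in 4 cells. Without the monocyte range 1 of 3 measured list genes was past 2-fold, but that range is set by 2 genes of this list, so its removal had to shrink the difference. In macrophages 3 of 6 list genes were higher in the Marfan library too, with a median of 1.02, where only 20 of 3032 genes (0.66%) were higher and 38 (1.25%) lower.

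On the lower side, Pdlim1, a cytoskeletal adaptor gene that went with Mgl2 above, gave 44 UMIs in 7 control cells and 16 UMIs in 10 Marfan cells, a log2 ratio of -3.17 (-4.09 to -2.31). Adgre1, which encodes the macrophage antigen F4/80, gave 13 UMIs in 4 control cells and 6 in Marfan cells (-2.82). Cd207, the langerin gene, had all of its 21 control UMIs in 1 cell. Mgl2 itself gave 467 UMIs in 8 control cells (2634 CPM) and 487 UMIs in 21 Marfan cells (842 CPM). Cell cycle genes were lower, 6 of 9 with a median of -1.18, and 2 of 6 were lower with cells weighted alike. Without the 2 cells of most list UMIs in each library, a choice made on the list itself, 0 of 2 measured genes were lower and the median was 0.24. Of the class II list, 2 of 12 genes were higher (H2-Ob and Marchf1) with a median of -0.14. This list holds genes of the rule, H2-Aa and H2-Eb1 among them, so this count and median are in part set by it. H2-Ab1 differed little, at 13450 and 12790 CPM.

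Within the 19 Marfan and 8 control cells with Cd209a and Mgl2 the interferon genes kept this side, 17 of 18 higher with a median of 3.39, while 2 of 4 monocyte genes were higher. Over all 2802 genes read in these cells, 328 (11.7%) were higher. This restriction was chosen after the data were seen.

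The library labelled Klf4-floxed was next set against the Marfan library, which shares the Fbn1 allele and is also the numerator above, so both sets of ratios move with its values. Of 2715 genes, 151 (5.56%) were at least 2-fold higher in the library labelled Klf4-floxed and 126 (4.64%) lower, 10.2% in all, with a median of -0.06. All 12 cell cycle genes measured were higher, with a median of 2.76. Stmn1, a microtubule-destabilising protein gene, gave 36 UMIs (62.2 CPM) in the Marfan library and 219 UMIs (519 CPM) in the library labelled Klf4-floxed. Pclaf, a PCNA partner in DNA synthesis, gave 8 and 94 UMIs, a log2 ratio of 4.01 (2.97 to 5.26), and Asf1b, a histone chaperone gene, had a ratio of 4.98 (2.36 to 10.34) on 1 and 23 UMIs. Mki67, the proliferation marker gene, gave 34 UMIs in 8 cells and 112 UMIs in 12 cells, and Top2a 26 and 137 UMIs. The list sum per 10000 UMIs had medians of 4.10 and 5.30 with highest cells at 107 and 118, so the medians were close. Without the cDC1, mature, plasmacytoid and cycling ranges 0 of the 2 genes still measured were higher and the median was -0.22, but the cycling range is set by genes of this list. In C1q macrophages 0 of 4 cell cycle genes were past 2-fold.

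Interferon genes were lower in the library labelled Klf4-floxed than in the Marfan library, 11 of 18 with a median of -1.25. Isg15 gave 66 UMIs in 11 cells (156 CPM), against 429 CPM. Cxcl10 (-6.58, -9.63 to -4.71) and Rsad2 (-2.91) were among the named genes, and Cxcl10 rested on the 2 Marfan cells given above. Ifitm1 (-3.21), which is in neither the interferon nor the monocyte list, was named too. Without the 2 cells of most list UMIs in each library, again chosen on the list itself, 1 of 8 interferon genes was lower. Ifitm1 gave 35 UMIs in 4 cells of the library labelled Klf4-floxed. Without the monocyte range its ratio was 0.09. Monocyte genes were lower for 3 of 5, with a median of -1.59, and 1 of 3 without the monocyte range, which is set by genes of the list. Plac8 gave 40 UMIs in 4 cells, against 357 in 19. Macrophages of the same libraries had 0 of 15 interferon genes past 2-fold (median -0.29) and 3 of 7 monocyte genes lower, where 11 of 2911 genes (0.378%) were lower and as many higher.

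Chemokine ligand genes were lower for 5 of 9, with a median of -1.39. Ccl4, an inflammatory chemokine gene, had a log2 ratio of -2.74. Ccl17 gave 604 UMIs in 12 Marfan cells, 267 and 109 of them in 2 cells, and 96 UMIs in 8 cells of the library labelled Klf4-floxed. Hmox1, the haem oxygenase gene, stood at -3.09 (-5.43 to -1.42) on 3 and 35 UMIs, and Timp1, a metalloprotease inhibitor gene, at -2.90. Several other named genes lay in 1 cell: 76 of 80 Retnla UMIs in 1 Marfan cell, and 62 of 65 Fmo2 and 23 of 26 Mfap4 and Ogn UMIs in 1 cell of the library labelled Klf4-floxed. Fmo2, Mfap4 and Ogn are fibroblast genes, and the part of stromal RNA or of a doublet in that cell was not tested.

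**Figure D5:**
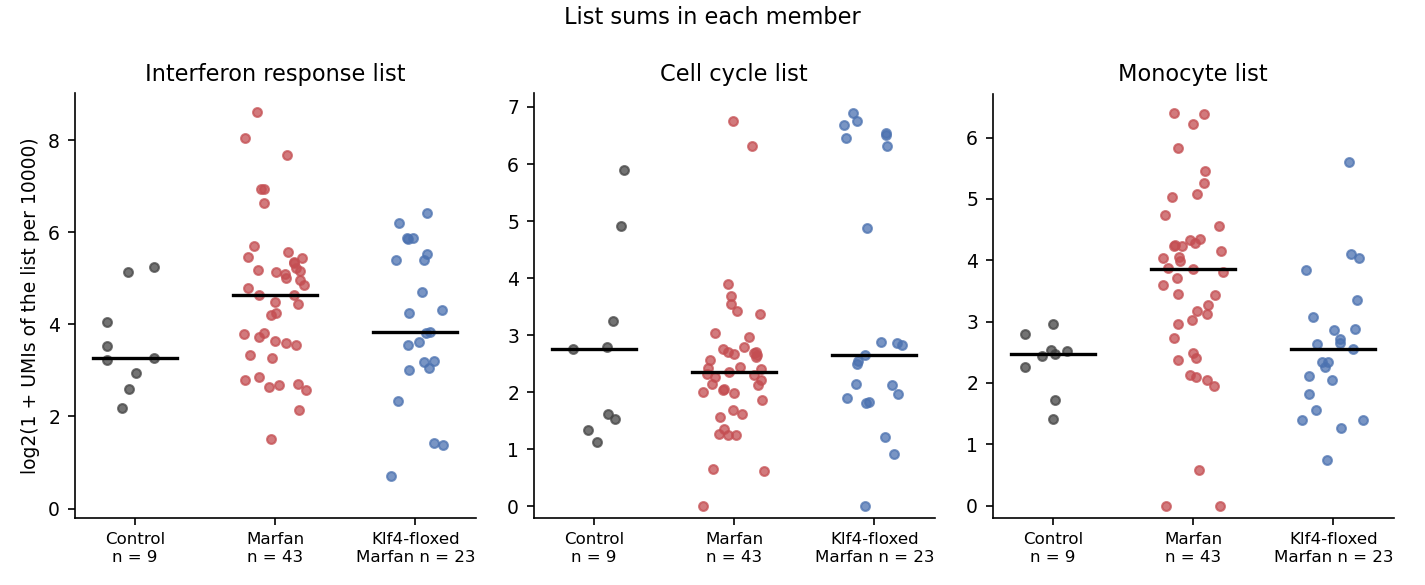
Sum of the interferon-response, cell cycle and monocyte lists in each dendritic cell, as log2(1 + UMIs of the list per 10000 UMIs of the cell), by library (9, 43 and 23 cells), with lines at the median. The interferon medians correspond to 8.59, 23.9 and 13.2 per 10000, the monocyte medians to 4.57, 13.5 and 4.88, and the cell cycle values split off a set of high cells in the library labelled Klf4-floxed.

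Against the control library, which both Marfan-allele libraries share as denominator, the library labelled Klf4-floxed had 240 of 2840 genes (8.45%) higher and 238 (8.38%) lower, 16.8% in all, with a median of -0.11. Median of ratios scaling moved that median to 0.0015 and the split to 282 higher and 185 lower, and totals without mitochondrial and ribosomal genes gave 464 and 293. Cell cycle genes were higher for 10 of 12, with a median of 1.59, and interferon genes for 4 of 9. Genes of the cDC2 list were lower for 5 of 10 (median -0.97), C-type lectins for 5 of 10, and chemokine ligands for 4 of 7 (median -1.37). The cDC2 list holds Cd209a, a gene of the rule, at 1015 and 567 CPM, so its median is in part set by the rule. Ccl17 stood at 2323 CPM in 7 control cells and 228 CPM in 8 cells, a log2 ratio of -3.35 (-3.69 to -3.03). Mgl2 stood at 2634 and 977 CPM. Adgre1 (-3.37, -5.82 to -1.50) and Cd163 (-3.18), a haemoglobin scavenger receptor gene, were lower on few UMIs.

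On the higher side, Kit, the stem cell factor receptor gene, gave 1 UMI in control cells and 31 UMIs in 12 cells of the library labelled Klf4-floxed, a log2 ratio of 3.70 (1.12 to 9.05), and also 31 UMIs in 19 Marfan cells. Bex3 gave 1, 24 and 37 UMIs, and Ltb, a lymphotoxin gene, 1, 25 and 36 UMIs in the control, Marfan and Klf4-floxed-labelled libraries. For these 3 genes both Marfan-allele libraries lay above the control. Timp3 (4.17, 2.59 to 6.46) and Gas6 (4.07, 2.17 to 7.14) rested on 1 cell, which held 111 of 128 and 76 of 80 UMIs, and without it the Gas6 ratio was -0.19.

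Levels of other genes, in the control, the Marfan and the library labelled Klf4-floxed, were as follows. Ccr2 stood at 271, 320 and 192 CPM and Csf1r at 118, 79.5 and 45.0 CPM. Irf4 stood at 73.3, 31.1 and 30.8 CPM. Irf8 stood at 192, 226 and 116 CPM, and all 34 of its control UMIs lay in 1 cell, the control cell with Flt3 and no Cd209a. Il1b, the inflammatory cytokine gene, stood at 1246, 2210 and 1714 CPM, and Clec10a at 84.6, 289 and 87.7 CPM. Lyz2, the lysozyme gene, stood at 1528, 952 and 1342 CPM, and Tgfb1 at 164, 140 and 123 CPM.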

How the data were processed

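UMIs per gene and barcode were deposited as raw counts in 6 filtered matrices, made with Cell Ranger 6.1.2 (per the file headers) on mm10 (per the submitters' processing notes). Counts were summed over cells of a class in each library and divided by the summed total to give CPM. Ratios had exact conditional binomial intervals, levels exact Poisson intervals and shares Clopper-Pearson intervals at 95%. A ratio was called at 2-fold where the larger level was 50 CPM or more and 10% or more of those cells held the gene.

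C1q macrophages held at least 10 UMIs of C1qa, C1qb and C1qc together and fewer than 2 of Cd209a and Flt3. Ly6c2 monocytes held at least 3 UMIs of Ly6c2 and Plac8, at least 1 of Csf1r, Ccr2 and Fcgr1, fewer than 5 of C1q and fewer than 20 of S100a8 and S100a9. Fibroblast-type cells held at least 20 UMIs of Col1a1, Col1a2 and Dcn and none of Ptprc. Doublets were kept. Scrublet marked 2 control cells at its automatic threshold, which was taken as failed, and the 166 highest scores were used there as an alternative. It marked 69 Marfan cells and 70 cells of the library labelled Klf4-floxed. Of the dendritic cells, 1 control cell was marked.

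Named genes were the 8 largest and 8 smallest ratios between libraries, without mitochondrial, ribosomal, haemoglobin, immunoglobulin, Gm and Rik names and stromal, mesothelial and erythroid markers. Against macrophages and monocytes they were the 12 highest and 12 lowest, with up to 6 genes per list, up to 8 per range, and 23 genes always read. The dendritic cells, gene lists and tests were chosen with earlier results of these data known. The calculation of ratios was tested on simulated data. Gene positions came from GENCODE, and identifiers matched those in the files. Clusters used 1000 variable genes, 10 components, 10 neighbours and Leiden resolution 1. Python 3.11.15, numpy 2.4.6, scipy 1.17.1, pandas 2.3.3, scanpy 1.11.5, leidenalg 0.10.2 and matplotlib 3.10.9 were used. Alternatives covered the thresholds, scaling, filters, depth and single cells.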

Additional observations from a re-analysis of the deposited data

Results flagged for a closer look

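The same rule was applied to the lineage-positive libraries, which no comparison above uses. It was met by 1 of 5432 kept control cells (0.0184%, 0.000466 to 0.103), 5 of 12100 Marfan cells (0.0413%, 0.0134 to 0.0964) and 1 of 6349 cells of the library labelled Klf4-floxed (0.0158%), with overlapping intervals. The 5 Marfan barcodes drew attention because the control library had 1. All 5 held TDT, 4 held Ptprc, their median depth was 5561 UMIs, and smooth muscle markers summed to 19916 CPM in them.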

How the results depend on the processing

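No paired analysis was possible because each group was 1 library. Few cells limit every ratio, since the control had 9, so many genes rested on 1 or 2 cells. Each cause was not tested, except where fewer genes or cells entered by construction. Settings that restrict members by Mgl2 or the monocyte range, leave out single cells, or ask for a UMI in 30% of cells were added after seeing the data. Ranges and top cells are set by genes of the lists, so leaving them out shrinks those lists by construction. Of 295 other values 236 kept their direction and size.

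With Cd209a and Flt3 at 1 UMI, control cells numbered 14 and cells of the library labelled Klf4-floxed 38, and the rule on thinned cells gave 15 there. The 464 genes between Marfan and control became 1310 at 20 CPM, 1658 without a level filter and 994 at 1.5-fold. The 277 between the library labelled Klf4-floxed and Marfan became 836, 1668 and 711 in that order, 437 without mitochondrial and ribosomal genes in the total, 648 without the mature, cDC1, plasmacytoid and cycling ranges, and 467 in cells with Mgl2. The 478 against control became 1315, 1698 and 1072, with 757 and 876 under the total and range settings. Against macrophages, 390 became 235 at 3-fold and 664 at 20 CPM, and against monocytes 340 became 208 and 581.

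Interferon genes higher in Marfan, 16 of 18, became 6 of 8 with a UMI in 30% of cells and 8 of 8 without the top 2 cells. Monocyte genes, 4 of 5, became 2 of 4 in cells with Mgl2 and 1 of 3 without the monocyte range. Cell cycle genes lower in Marfan, 6 of 9, became 2 of 6 with cells weighted alike, 3 of 6 at 30%, 2 of 10 without the monocyte range, and turned to 0 of 2 without the ranges (median 0.89) or the top 2 cells. Against Marfan, interferon genes lower became 3 of 8 at 30% and 1 of 8 without the top 2 cells. Monocyte genes became 1 without the monocyte range, chemokines 8 of 13 without a filter and 1 of 4 at 30%, and cell cycle genes turned to 0 of 2 without the ranges. Against control, 2 monocyte genes higher became 4 without the ranges and 1 at 30%, in cells with Mgl2, without the monocyte range and without the top 2 cells. Cell cycle genes became 1 of 2 without the ranges. The cDC2 genes lower became 3 with cells weighted alike, and 2 without the ranges or the top 2 cells.

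Thinning left 0, 3 and 1 cells in the cDC1 range, 0, 1 and 1 in the mature range, 2 control cells in the cycling range, and 0 plasmacytoid and 1 monocyte-range cell in the library labelled Klf4-floxed. Thresholds 1 UMI lower gave 3 mature control and 12 cycling Marfan cells, and 1 UMI higher gave 2 mature Marfan and 0 plasmacytoid cells in the library labelled Klf4-floxed. Klf4 there stood at 132.6 CPM without its top 2 cells.

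Named gene ratios held in 221 of 229, 212 of 226 and 215 of 223 values in the order of the comparisons above. Held means inside the counting interval of the reported ratio, and many of these intervals were wide, so this asks little. Without the cell of most UMIs of the gene, 3 of 14, 0 of 13 and 1 of 12 genes fell under 2-fold. A further 2, 3 and 4 genes had no value left. Ifitm1 turned from -3.21 to 0.087 without the monocyte range. Gas6 turned to -0.19 without its top cell, which also goes when cells of high collagen are left out.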
